A study of Bos taurus and Ovis aries and Capra hircus with 9 samples.

Results

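In the liver, 37 of the 7827 genes compared between cattle, sheep, and goats were set apart in the goat alone. In 28 of them, each of the 3 goat libraries lay at least 4-fold above every cattle and every sheep library, which is 0.358% of the genes compared. In the other 9, each goat library lay at least 4-fold below all of them, which is 0.115%. A further condition was a CPM of at least 5 in every library on the higher side, where CPM is a count scaled by the TMM-adjusted sum of a library's counts on shared genes. Genes with more than 50% of their exon length under the exons of another gene, and genes between 25 and 29 Mb of cattle chromosome 23, where the MHC lies, were left out. The genes compared were those of 8834 shared genes, inferred from the order of exon lengths in the 3 annotations, that had a CPM above 1 in at least 2 libraries. The 37 genes were chosen by these same TMM-normalized CPM values of goats against cattle and sheep, and their differences between goats and the other species are given as a description and without a test. The same rule found 53 genes for sheep alone and 205 for cattle alone.

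The livers came from 3 Holstein cattle of 3 to 4 years, 3 Texel sheep of 2 to 3 years, and 3 Yunnan black goats of 2 to 3 years, all adult, healthy, and untreated as far as the labels and methods state. Each animal gave 1 poly(A) RNA library, called replicate A, B, or C of its species, so species, breed, and reference annotation changed together and cannot be told apart. Library totals ran from 16507706 counts in goat replicate C to 61105490 in cattle replicate C, and 3 counts on a gene corresponded to a CPM between 0.0929 and 0.27. Goat replicate C also had a TMM factor of 1.51, against 0.852 to 1.07 in the other libraries. The 14 hepatocyte markers measured had summed CPM values of 167000 to 197000 (cattle), 222000 to 324000 (sheep), and 74400 to 260000 (goats), so every library carried the RNA of its labelled tissue. In these bulk samples, fewer cells of a type and less RNA per cell cannot be told apart.

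Most liver RNA comes from hepatocytes, which take up, convert, and export sugars, lipids, peptides, and foreign compounds. Such traffic depends on solute carriers, a large class of membrane transporters, and on enzymes that oxidize or conjugate the cargo. Epithelial kinases, secreted ligands, integrins, and peptidases are usually scarcer there and are better known from the gut, the kidney, muscle, or endocrine cells. Of the 37 genes, 36 could be given a symbol from their position in the cattle genome, and the remaining gene is ENSBTAG00000045529.

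Several of the genes higher in goats encode membrane transporters. SLC47A2, an exporter of organic cations, had a CPM of 277, 366, and 237 in goat replicates A, B, and C. It had 0.413, 0.96, and 0.825 in cattle and 3.23, 2.89, and 13.7 in sheep. All goat libraries thus stood above all others, and the lowest of them was 17.3-fold above sheep replicate C, the highest library of the other species. This ratio, of the goat library nearest to the others to the nearest library of the other species, is called the gap below. For ANO9, an anoctamin of the family of ion channels and lipid scramblases, the goat values were 104, 147, and 137, while all cattle and sheep values lay between 0.588 and 1.89. The gap of 54.7 was the third largest of the 28. SLC15A3, a transporter of peptides and histidine in the lysosomal membrane, was measured well in every species, with 20.9, 11.5, and 6.79 in cattle, 22.4, 30.6, and 21.0 in sheep, and 171, 129, and 136 in goats, a gap of 4.21. SLC2A12, a glucose transporter, was low even in goats at 5.07, 18.2, and 10.5, against at most 0.891 elsewhere. SV2A, a synaptic vesicle protein of the transporter superfamily, lay just inside the limit with 8.56, 19.5, and 15.6 in goats and at most 2.07 elsewhere.

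Enzymes formed a second group. MIOX, which opens the ring of myo-inositol in the first step of its breakdown, reached 221, 293, and 517 in goats. Cattle had 8.1, 5.73, and 3.14, and sheep had 28.7, 38.1, and 7.52, and no goat library overlapped with either. Its mean in goats was 344 ± 154 (SD, n = 3), 60.8 times the cattle mean and 13.9 times the sheep mean. CYP2S1, a cytochrome P450, had 75.2, 42.8, and 76.5 in goats, 9.49, 9.65, and 6.07 in sheep, and 1.57, 1.3, and 0.857 in cattle. CA11, a relative of the carbonic anhydrases that lacks their catalytic activity, had 42.2, 50.7, and 33.7 in goats, 1.91, 3.82, and 2.67 in sheep, and 0.248, 0.155, and 0.317 in cattle. ART3, of the ADP-ribosyltransferase family, differed from these in that cattle and sheep were alike, with means of 0.954 ± 0.391 and 0.862 ± 0.159 (SD, n = 3) against 40.3 ± 9.32 in goats.

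Both peptidases of the set were close to undetectable outside goats. MME encodes neprilysin, which cleaves small peptides at the cell surface. It had 578, 440, and 580 counts in the goat libraries, a CPM of 32.5, 39.6, and 45.5, while all 3 cattle libraries held 0 counts and sheep held 0, 1, and 0. Set against 3 counts in a library, the goat mean was at least 316-fold higher than cattle. Against the single sheep count the ratio of means was 2280, with an exact 95% counting interval of 409 to 90100. PCSK1 encodes the prohormone convertase that processes peptide hormones in endocrine cells. Goats had 522, 163, and 167 counts, cattle 7, 3, and 11, and sheep 1, 0, and 0. Its ratio to sheep was 1380 (counting interval 247 to 54500), and its ratio to cattle was 78.2. Such intervals cover only the counting error of the lower species and leave out the spread between animals. PCR copies of a molecule are counted as separate reads, which would make them too narrow.

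Signalling and surface proteins held the widest gap. PTK6, a non-receptor tyrosine kinase of epithelia, had a CPM of 108, 137, and 69.0 in goats, from 1919, 1524, and 880 counts. Cattle had 0, 2, and 3 counts and sheep 5, 5, and 4, and the gap was 268. WNT5A, a secreted ligand of non-canonical Wnt signalling, had 48.0, 130, and 77.6 in goats, 1.12, 0.877, and 0.947 in sheep, and 0, 0.0619, and 0.254 in cattle. The goat libraries differed among themselves but none came within 42.8-fold of the others. KL, or klotho, the co-receptor of the hormone FGF23, was the most uneven gene among the goats named here, with 31.4, 34.7, and 6.82, the lowest in replicate C. No cattle or sheep library exceeded 0.954 for it. PDGFRL, named for its likeness to a platelet-derived growth factor receptor, had 20.3, 26.6, and 32.5 in goats and at most 1.24 elsewhere.

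Unlike these, ITGA7 was clearly present in all species. It encodes the alpha subunit of a laminin-binding integrin and had 1000, 1150, and 895 in goats. Cattle had 89.7, 69.6, and 26.8 and sheep 13.9, 24.1, and 9.75. The goat mean of 1020 ± 128 (SD, n = 3) was 16.4 times the cattle mean and 63.8 times the sheep mean, with a gap of 9.97. The goat model holds 7054 bases of exon, against 4060 in cattle and 4067 in sheep. In goat, 22.78% of the exon length lies under another gene. Divided by exon length, the gap was 5.74. On the scale of CPM per kb of annotated exon, on which genes can be compared with each other, the highest goat levels among the goat-higher genes were those of MIOX at 239, ITGA7 at 144, SLC15A3 at 83.4, SLC47A2 at 67.1, NOP9 at 52.2, and ANO9 at 44.3.

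In another group of 4 genes, NOP9, UBE2H, and DCUN1D4 have general roles and were well measured in every library. NOP9, which acts in the making of ribosomal RNA, had 161, 264, and 262 in goats against 17.2 to 26.9 in the other 6 libraries. UBE2H, a ubiquitin-conjugating enzyme, had 175, 192, and 180 in goats, 30.9, 28.6, and 28.4 in cattle, and 14.9, 5.52, and 15.5 in sheep. For DCUN1D4, which promotes the attachment of NEDD8 to cullins, the goat values were 128, 181, and 108, and the others lay between 6.09 and 21.9. PRRG4, a membrane protein with a vitamin K-dependent Gla domain, had 87.5, 63.2, and 52.1 in goats and at most 12 elsewhere. It was low in sheep at 3.61, 0.567, and 2.95, with only 11 counts in sheep replicate B. The gaps of these 4 genes were 5.96, 5.66, 4.95, and 4.35, and after division by exon length each of them was under 4, as described with the annotated lengths.

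The remaining goat-higher genes were of mixed or less known function. RUNDC3A, a RUN domain protein, had 28.7, 33.7, and 34.5 in goats and at most 0.877 elsewhere, a gap of 32.7. CFAP70, a protein of the ciliary axoneme, had 59.3, 77.7, and 45.0 against at most 3.62. MAB21L4, of the Mab-21 family, had 11.6, 24.1, and 32.7 in goats, while cattle held 1, 2, and 0 counts and sheep 5, 25, and 5. Sheep replicate B alone, at a CPM of 1.29, set its gap of 8.99. PPEF2, a calcium-regulated protein phosphatase, had 9.63, 29.6, and 25.4 in goats and lay closest to the limit, with a gap of 4.02. FAM169B, PSMC3IP (a cofactor of meiotic recombination), RASEF (a small GTPase of the Rab family), and ENSBTAG00000045529 completed the set, with gaps between 4.15 and 5.45. In 6 of the 28 genes every cattle and sheep library lay under a CPM of 1, which was the case for 114 of all genes compared.

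**Figure D1:**
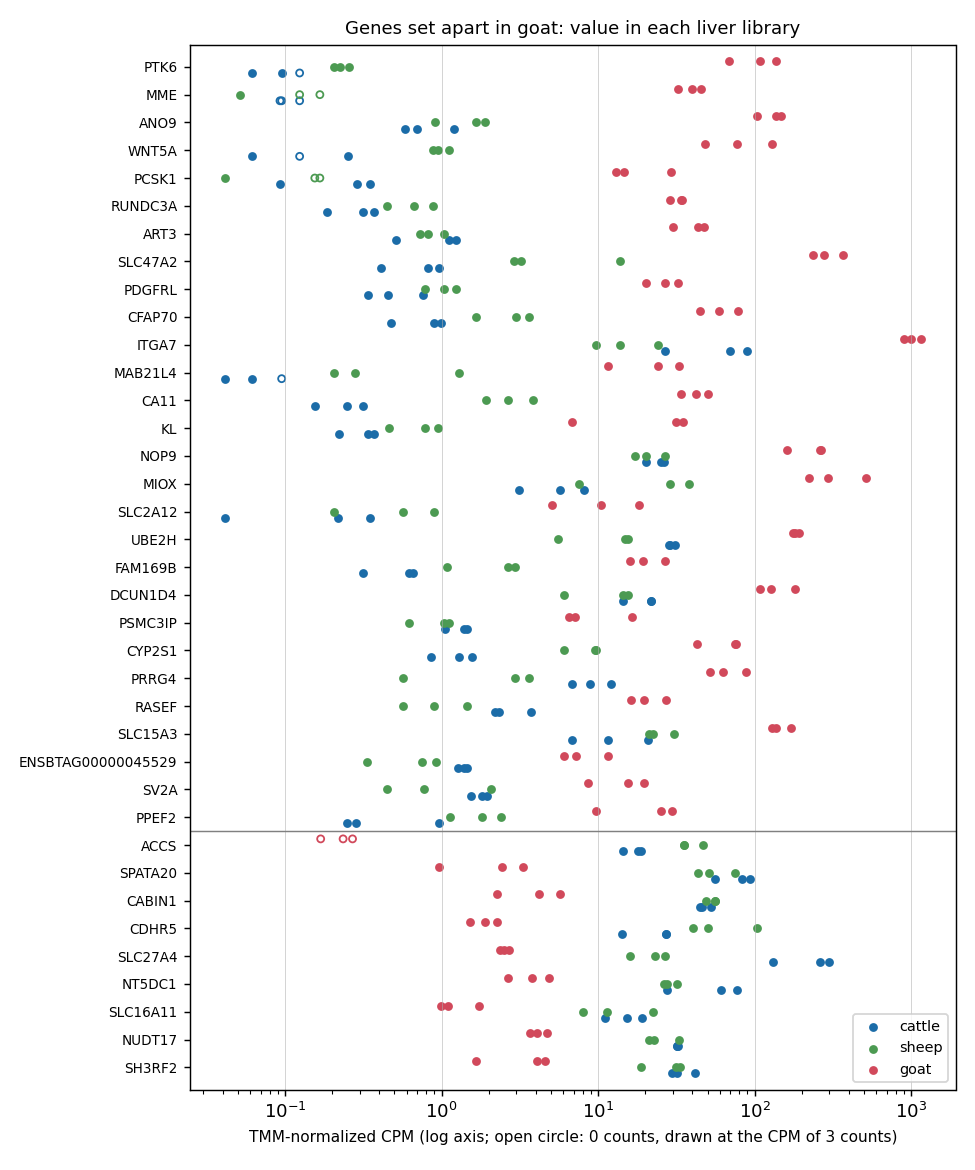
TMM-normalized CPM of the 37 genes (rows) in each liver library on a log axis, with 3 points for each species. The 28 genes above the grey line have all goat points on the right of the others, from PTK6 with a gap of 268 down to PPEF2 with 4.02, and the 9 genes below it have all goat points on the left.

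Among the 9 genes lower in goats, ACCS had no goat count at all. ACCS is the animal relative of plant 1-aminocyclopropane-1-carboxylate synthase. Its CPM was 18.7, 14.5, and 17.9 in cattle and 35.2, 46.6, and 35.2 in sheep, with 0 counts in each of the 3 goat libraries. Set against 3 counts in a library, goats were at least 62.9-fold lower than cattle and at least 144-fold lower than sheep. The gene is annotated in goat at chr15:8829827-8858130 of ARS1 with 3533 bases of exon, none of them under the exons of another gene. This model was not checked against the goat genome or another assembly, so the bounds hold for counts on this model only. SPATA20, named for its testis expression and holding a thioredoxin-like domain, had 83.1, 93.2, and 55.6 in cattle, 43.2, 74.8, and 51.0 in sheep, and 0.957, 2.43, and 3.29 in goats. The goat libraries held 17, 27, and 42 counts for it, and the gap was 13.1.

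Solute carriers were among the goat-lower genes as well. SLC27A4, a fatty acid transport protein with acyl-CoA synthetase activity, had 261, 300, and 131 in cattle, 23.2, 26.6, and 16.1 in sheep, and 2.7, 2.52, and 2.35 in goats. None of the 3 species overlapped. The cattle mean was 91.3 times the goat mean and the sheep mean 8.7 times. SLC16A11, a member of the monocarboxylate transporter family, had 19.0, 15.3, and 11.1 in cattle, 11.4, 22.5, and 7.97 in sheep, and 1.74, 0.991, and 1.1 in goats. Cattle and sheep overlapped for this gene, and goats lay below both with a gap of 4.57.

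CDHR5, a cadherin that links the microvilli of brush borders, had 27.1, 14.3, and 27.0 in cattle, 50, 103, and 40.4 in sheep, and 1.52, 1.89, and 2.27 in goats. NT5DC1, with a 5'-nucleotidase domain, had 60.7, 76.9, and 27.7 in cattle, 26.2, 27.6, and 31.9 in sheep, and 3.77, 4.86, and 2.67 in goats. Thus the sheep were the higher group for CDHR5, whereas cattle and sheep overlapped for NT5DC1. NUDT17, a nudix hydrolase, had 32.2 ± 0.228 in cattle, 25.5 ± 6.45 in sheep, and 4.14 ± 0.528 in goats (SD, n = 3). However, 46.4% of its goat exon length lay under another gene, close to the limit of 50%. SH3RF2, an E3 ubiquitin ligase with SH3 domains, had 34.5 ± 6.41, 27.8 ± 7.91, and 3.42 ± 1.56.

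CABIN1, an inhibitor of calcineurin that also takes part in histone deposition, requires its gene model beside its values. Its CPM was 52.6, 44.5, and 46.0 in cattle, 55.4, 55.7, and 48.7 in sheep, and 4.22, 2.25, and 5.72 in goats. The goat gene lies at chr17:1414-17003 of ARS1, at the very start of the assembled chromosome, with 2033 bases in 14 exons. The cattle model has 6859 bases in 37 exons and the sheep model 6604 bases in 36. Divided by exon length, the levels were 6.96 CPM per kb in cattle, 8.06 in sheep, and 2.0 in goats, which reduced the gap from 7.77 to 2.3.

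The goat libraries did not take equal parts. Of the 28 goat-higher genes, replicate B was the highest goat in 18, and replicates A and C were the lowest in 14 and 12. The largest goat value was a median of 1.68 times the smallest in the goat-higher genes and 1.79 times in the goat-lower genes, near the 1.87 over all genes compared. To see the third goat in genes it had not helped to choose, the rule was applied to each pair of goats. Goats A and C chose 32 higher genes, of which 29 (90.6%) were also 4-fold apart in goat B, and 10 lower genes, of which 9 (90.0%) were. Goats B and C chose 54 higher genes, of which 33 (61.1%) were 4-fold apart in goat A, and 27 lower genes, of which 9 (33.3%) were. Goats A and B chose 52 higher and 16 lower genes, and goat C was 4-fold apart in 30 (57.7%) and 9 (56.2%) of them. In these lists, the left-out goat fell inside the range of the cattle and sheep libraries for MYL11 (left-out goat A, higher), MBNL3 (goat A, lower), and ATP8A2 (goat C, higher), which are named after their values were seen. In every other gene it lay outside that range on the same side. Over all genes compared, all goat libraries lay above all others by any amount in 11.2% and below them in 8.43%.

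The limit of 4-fold ran through a series of neighbouring values, most closely on the higher side. Just inside it among the goat-higher genes were PPEF2 (4.02), SV2A (4.13), and ENSBTAG00000045529 (4.15). Just outside were SYDE1 with a gap of 3.92, RARRES1 with 3.89, and NFKBIE with 3.88. SYDE1 had 53.9, 52.7, and 51.7 in goats against 6.09 to 13.2 in the others, and NFKBIE, an inhibitor of NF-kappa-B, had 74.0, 74.1, and 94.3 against 12.3 to 19.1. On the lower side SH3RF2 (4.1), NUDT17 (4.46), and SLC16A11 (4.57) lay just inside, and ENSBTAG00000011494 (3.42), DDI2 (3.35), and SLC16A13 (3.17) just outside.

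Annotated exon length was measured because counts on a gene grow with the length that is annotated, and each species was counted on its own annotation. In the 28 goat-higher genes the median exon length was 4247.5 bases in goat, 2718 in cattle, and 1697 in sheep. Over all genes compared it was 2589, 3016, and 2162. The goat model was the longest of the 3 in 21 of the 28 genes (75.0%), against 29.3% of all genes, and it was a median of 1.32 times the cattle model, against 0.846 over all genes. The part of goat model length in the selection was not tested. In the goat-lower genes the goat model was the shortest in 3 of 9 (33.3%), against 45.8% of all genes. It was the longest in 2 of 9 (22.2%), against 29.3%.

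Divided by exon length, all 37 genes still had every goat library outside the range of the others. Of the 28 goat-higher genes, 17 remained at least 4-fold apart, and of the 9 goat-lower genes 6 did, counting ACCS with its 0 counts. The smallest gaps per kb were those of PRRG4 (1.04), DCUN1D4 (1.54), UBE2H (1.88), SV2A (2.11), CYP2S1 (2.25), and CABIN1 (2.3). For PRRG4 the goat model held 5176 bases, against 1240 in cattle and 687 in sheep, and for UBE2H the lengths were 5586, 2320, and 936 in the same order. Other genes kept wide gaps per kb, with 232 for MME, 76.0 for PTK6, 44.8 for ANO9, 28.6 for RUNDC3A, 25.4 for SPATA20, 17.6 for PCSK1, 13.4 for ART3, and 12.1 for CFAP70. WNT5A lay between, since its gap fell from 42.8 to 7.89 with a goat model of 6914 bases against 2045 in cattle and 1273 in sheep. Which of the annotated bases were transcribed in these livers was not tested.

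**Figure D2:**
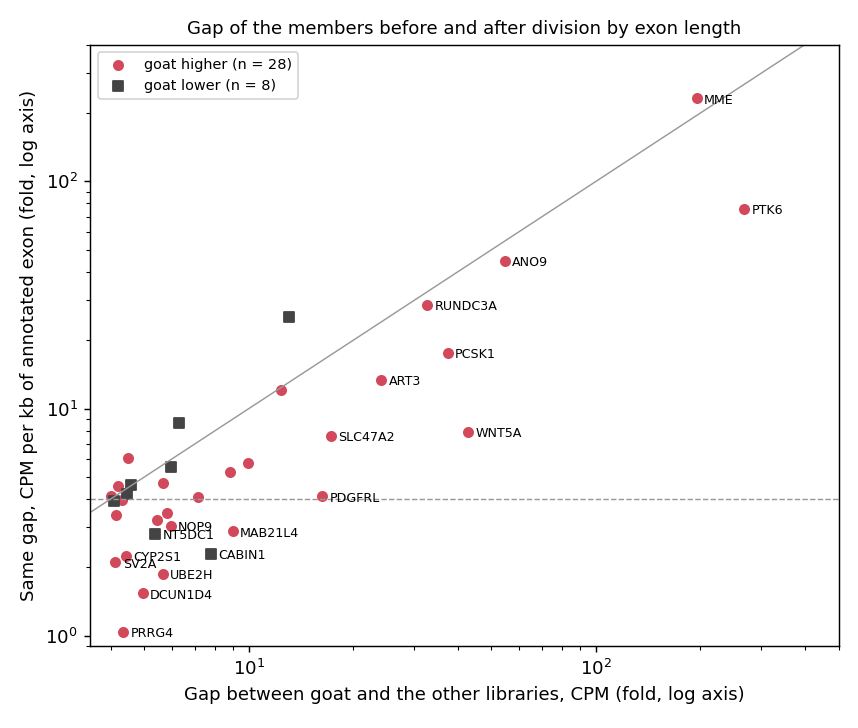
Gap of each gene between goat and the other libraries in CPM (x axis) and in CPM per kb of annotated exon (y axis), both as folds on log axes, with ACCS left out because its goat counts are 0. The solid line marks equal gaps and the dashed line 4-fold; most goat-higher genes lie below the solid line, 17 of the 28 remain above the dashed line, and PRRG4 falls to 1.04.

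For cattle against sheep, no goat value enters the fold change, although the cattle and sheep values were the reference of the rule that chose the genes. Tested by the quasi-likelihood method of edgeR on all 9 libraries, with p-values adjusted over all 7827 genes by Benjamini-Hochberg, 48.6% of genes were called (23.0% higher in cattle, 25.5% higher in sheep). Of the 37 genes, 20 were (54.1%), 7 higher and 13 lower in cattle. However, 8 of the goat-higher genes passed the filter on low counts only through the goat libraries, namely KL, MAB21L4, MME, PCSK1, PDGFRL, PTK6, RUNDC3A, and SLC2A12. With cattle and sheep libraries alone, 29 of the 37 genes were tested and 15 were called (51.7%, against 55.8% of all genes in that fit). In cattle 5 of them were higher (17.2% of the 29, against 26.7% of all genes) and 10 lower (34.5%, against 29.1%). Of the goat-higher genes 12 of 20 were called (60.0%), and of the goat-lower genes 3 of 9 (33.3%). The share called in either direction, taken over all members, lay near the background in both fits. The p-values weigh each difference against the spread between animals of the same species. In the fit of all 9 libraries this spread was estimated over all 3 species, so goat values entered it. In the fit of cattle and sheep alone they did not.

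Among the 29 genes, CA11 was lower in cattle than in sheep by a log2 fold change of -3.51 (SE 0.41, adjusted p = 6.2e-05, edgeR on all libraries, and 0.00053 on cattle and sheep alone). For SLC47A2 it was -3.13 (SE 0.59, adjusted p = 0.0013, and 0.0054 on cattle and sheep alone), but -2.04 without sheep replicate C, the highest sheep library. In both genes all 3 cattle libraries lay below all 3 sheep libraries. SLC27A4 was the gene most raised in cattle, at 3.39 (SE 0.34, adjusted p = 2.4e-05, and 0.00024 on cattle and sheep alone). Of the genes admitted only through goats, MAB21L4 and PCSK1 had fitted log2 fold changes of -3.88 and 3.49 between cattle and sheep. These are given as values, since MAB21L4 fell to -2.62 without sheep replicate B and PCSK1 had a single sheep count.

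Goat-higher genes lower in cattle than in sheep in both fits included CYP2S1, WNT5A, and MIOX, so in these the species followed the order goat, sheep, cattle. ITGA7, PRRG4, RASEF, and UBE2H were higher in cattle than in sheep in both fits and had the order goat, cattle, sheep. With exon length as an offset in the fit, however, UBE2H had a log2 fold change of -0.02 between cattle and sheep (adjusted p = 0.96), RASEF 0.06 (0.92), and PRRG4 1.1 (0.088). RASEF was also not called without cattle replicate B (adjusted p = 0.061).

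**Figure D3:**
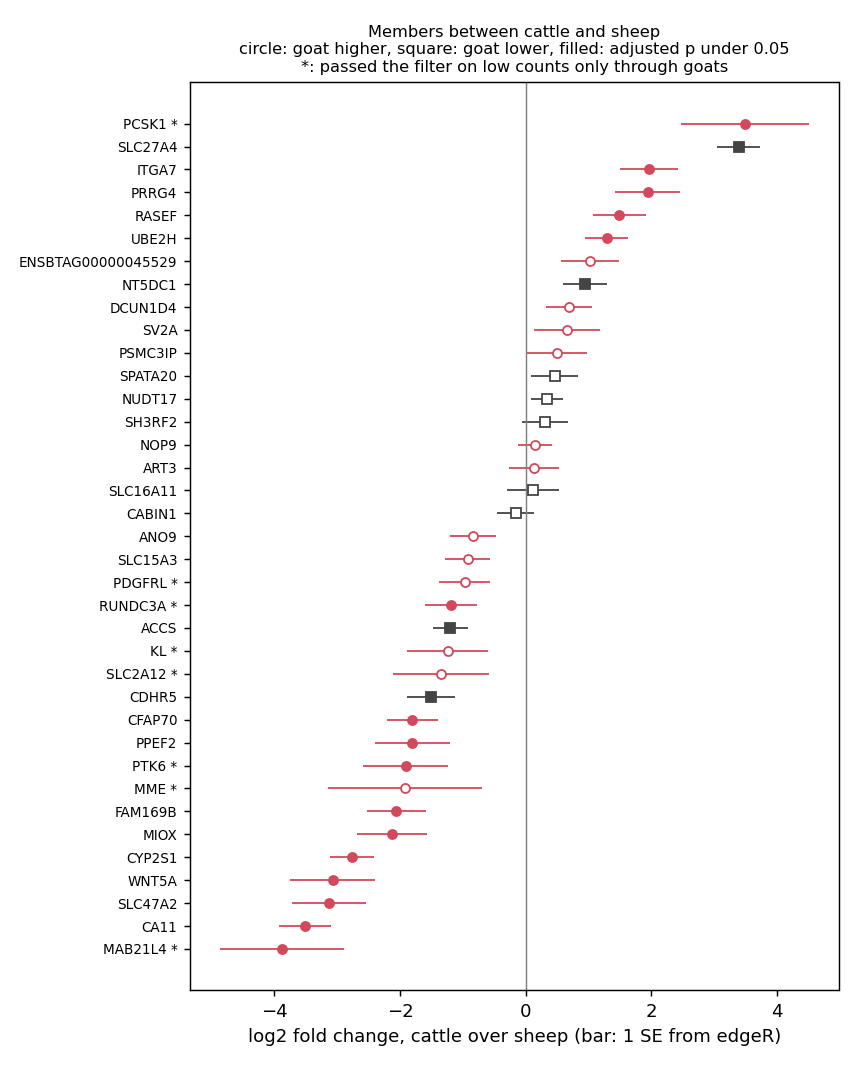
log2 fold change of cattle over sheep for the 37 genes (points, with bars of 1 SE from edgeR), circles for goat-higher and squares for goat-lower genes, filled where the adjusted p is under 0.05. An asterisk marks the 8 genes that passed the filter on low counts only through goats; of the others, CA11 (-3.51) lies farthest to the left and SLC27A4 (3.39) farthest to the right.

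The genes were spread over the genome, and no member had another member as its nearest shared gene. Cattle chromosome 19 held 5 of the 37 (13.5%, against 6.23% of all genes compared). The nearest shared genes on both sides in the goat genome numbered 73 in all. Of the 56 beside goat-higher genes, 8 (14.3%) were more than 1 higher in goats on the scale of log2(CPM + 1) and 9 (16.1%) more than 1 lower, against 11.8% and 15.7% of all genes. Of the 17 beside goat-lower genes, these were 1 and 3. By the edgeR test the 73 neighbours held 27 goat-higher and 18 goat-lower genes against cattle (37.0% and 24.7%, with 28.0% and 24.2% over all genes). Against sheep they held 12 and 11 (16.4% and 15.1%, with 14.0% and 11.3% over all genes).

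A few neighbourhoods held more than a single goat difference. They were singled out after the values had been seen, so their differences are given without a test. The neighbour with the largest goat excess was ENSBTAG00000000540, which lies 139909 bases from SLC47A2 in goat. Its CPM was 21.8, 49.4, and 59.4 in goats, 8.58, 8.82, and 5.46 in sheep, and 0.455, 0.402, and 0.317 in cattle. With edgeR, its log2 fold change was 6.78 (SE 0.49) for goat against cattle and 2.51 (SE 0.39) for goat against sheep. SLC16A13, another member of the monocarboxylate transporter family, lies 989 bases from SLC16A11 in goat and was 1 of the 3 genes just outside the limit. Its CPM was 18.8, 21.5, and 10.9 in cattle, 7.21, 13, and 7.74 in sheep, and 1.18, 1.44, and 2.27 in goats. With edgeR, its log2 fold change was -3.39 (SE 0.43) for goat against cattle and -2.52 (SE 0.42) for goat against sheep. PPEF2 and ART3 lie 109718 bases apart in goat, with SDAD1 and NAAA, which hydrolyses lipid amides in lysosomes, as the shared genes between them. NAAA was also highest in goats, at 392, 363, and 383 against 161, 172, and 100 in sheep and 15.1, 14.8, and 11.5 in cattle. SDAD1 between them had a log2 fold change of 0.03 (SE 0.23) for goat against sheep and -0.9 (SE 0.23) for goat against cattle.

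ANO9 lies between a gene lower in goats and a gene higher in goats. SIGIRR, a damper of interleukin-1 and Toll-like receptor signals, had 140, 221, and 240 in goats against 30 to 57.3 in the other libraries, with log2 fold changes of 2.4 (SE 0.28) against cattle and 2.01 (SE 0.28) against sheep. PTDSS2, which makes phosphatidylserine, had 3.88, 4.23, and 3.68 in goats against 10.6 to 40.4, with log2 fold changes of -3.18 (SE 0.31) and -1.68 (SE 0.29). All 4 folds are from the edgeR fit of all libraries. CDHR5, lower in goats, is on the same chromosome at chr29:45820820-45828521 of ARS1, with ANO9 at chr29:45977423-45999237. These neighbours, too, were singled out after their values had been seen, and their differences are given without a test.

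**Figure D4:**
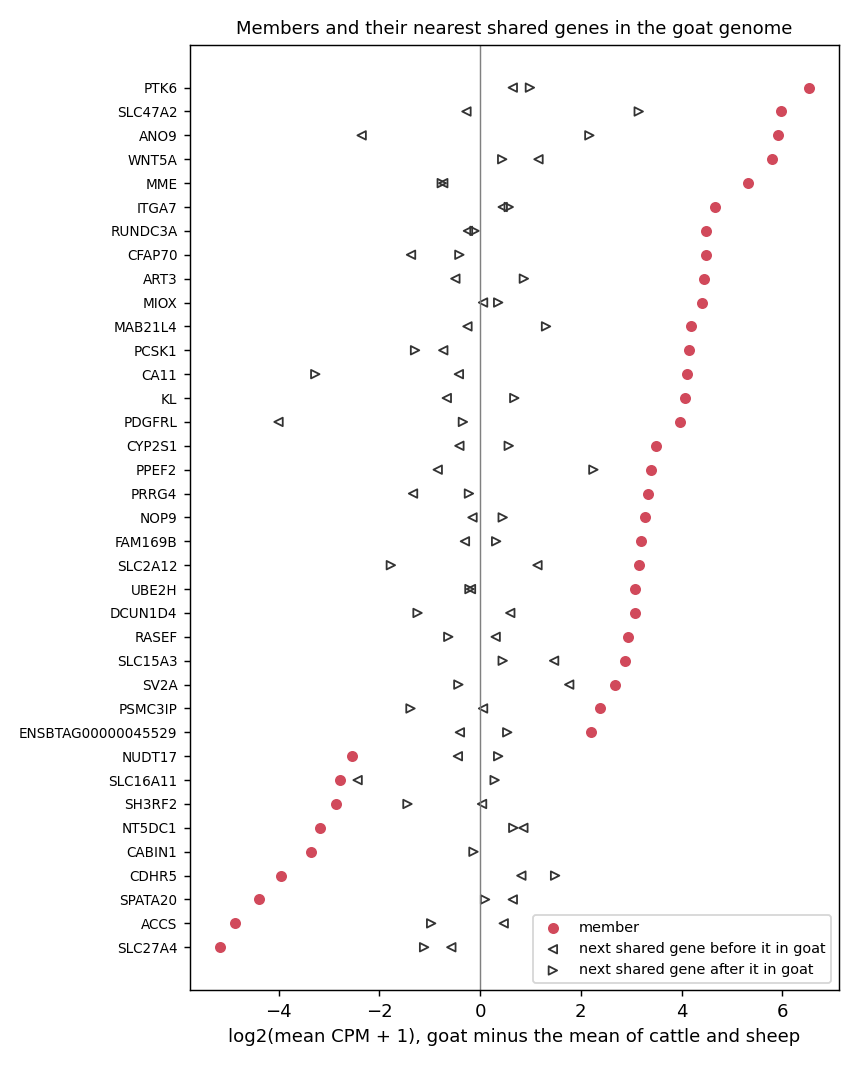
Difference between goats and the mean of cattle and sheep in log2(mean CPM + 1) for each of the 37 genes (red points) and for the nearest shared gene on each side of it in the goat genome (open triangles). The neighbours scatter on both sides of 0, with a median of -0.20 beside the goat-higher genes and 0.10 beside the goat-lower genes; the neighbour of SLC16A11 below 0 is SLC16A13.

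The 24 lists of liver cell types and pathways held none of the 37 genes. Counts from the edgeR test are given for the pathways nearest to the roles of these genes, where the background over all genes is 28.0% higher and 24.2% lower in goats against cattle, and 14.0% and 11.3% against sheep. Of 11 measured genes of xenobiotic metabolism, 4 were higher and 0 lower in goats than in cattle (median log2 fold change 0.85, against 0.10 over all genes), and 1 was higher and 1 lower in goats than in sheep (median -0.62, against -0.01 over all genes). Of 12 genes of fatty acid and triglyceride synthesis, 0 were higher and 2 lower against cattle (median 0.25), and 0 and 5 against sheep (median -1.4). The 5 were ACACA, FASN, ACLY, ACSS2, and SCD, enzymes that make fatty acids from acetate and citrate or desaturate them. Fatty acid oxidation and ketogenesis, with 17 genes, had 3 higher and 2 lower against cattle and 4 and 0 against sheep (medians 0.06 and 0.21).

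The lists of cell types showed which cells the libraries could hold. The 4 cholangiocyte markers measured had summed CPM values of 25.5 to 35.2 (cattle), 33.3 to 91.4 (sheep), and 36.5 to 78.0 (goats), and the goat and sheep ranges overlapped. For the 4 macrophage and Kupffer cell markers the sums were 623 to 776, 632 to 989, and 779 to 1050. Of the 2 neutrophil markers measured, FCGR3A stood apart in goats, with 222, 166, and 303 against 19.2 to 87.6 in the other libraries. CSF3R did not, with 28.9, 10.5, and 33.4 in goats against 10.5 to 29.2. The part of FCGR3A-bearing cells in the 37 genes was not tested. MME is known from neutrophils as well as from kidney.

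KL, MIOX, SLC47A2, and MME are all known from the kidney, so a list of 16 kidney genes was added after the 37 genes had been seen. Of these, 6 were measured (SLC12A1, SLC34A1, CUBN, NPHS1, CALB1, and TINAG). Their summed CPM was 6.81 to 9.1 in the goats, 5.36 to 8.75 in the sheep, and 0.331 to 0.619 in the cattle. The sums of goats and sheep thus overlapped, and SLC12A1, CALB1, and TINAG had 0 counts in all 3 cattle libraries. The sum hides markers that differed in opposite ways. CUBN, the highest single marker in goats, reached 1.13, 4.86, and 3.45, against at most 0.433 in the cattle and sheep libraries. NPHS1 had 2.59, 1.26, and 0.862 in goats, against at most 0.103 in the others. In CALB1, TINAG, and SLC34A1, by contrast, every goat library lay below every sheep library. Goats and sheep overlapped for SLC12A1. CUBN and NPHS1 were measured only because of their goat levels, and the other 4 only because of their sheep or goat levels, so no test is given for them. The sum of these 6 markers was under a CPM of 10 in every library. The other genes of the list were not measured, and the part of kidney genes in the result was not tested.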

How the data were processed

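The authors trimmed the reads with Trimmomatic 0.39, mapped them with STAR 2.7.6 (allowing 3 mismatches) to the Ensembl genomes ARS-UCD1.2, Oar_rambouillet_v1.0, and ARS1, and deposited raw featureCounts counts per gene with exon positions and lengths. Strand and read-pair options are not given in the sources used here. From these counts, shared genes were inferred as reciprocal best matches of ordered internal exon lengths in all 3 species pairs (at least 2 exons and 50% of the shorter list matched, and 2 neighbouring pairs within 10). Symbols come from the position of the cattle gene in a RefSeq table of the assembly ARS-UCD2.0 (50% reciprocal overlap), which named 8228 of 8834 shared genes. No coordinates of that table are printed. Gene ends coincided to the base for 23.7% of the shared genes. Genes with near-identical copies are mostly lost by this matching, and reads shared between related genes such as those of the CYP2 and SLC47 families were not resolved. Shared genes entered the comparison if their CPM exceeded 1 in 2 or more libraries, and CPM values are scaled to the counts on these genes with TMM factors.

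All 9 libraries were fitted together with edgeR 4.0.16 in R 4.3.3 (quasi-likelihood test, Benjamini-Hochberg adjustment at 0.05), with DESeq2 1.42.0 as an alternative. Both steps were tested on simulated data. The 37 genes, the lists, and the tests were chosen with earlier results of these data known. Genes are given in full by a rule: in each direction the 12 with the largest gap and the 8 with the highest level, the 5 with the largest called difference between cattle and sheep, and 3 on each side of the 4-fold limit; any other member may be named. No sequences are shown, because no genome was used. The alternatives were other scalings, thresholds, filters, exon length, gene matching, the replicate block, a fit of cattle and sheep alone, and each library left out.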

Additional observations from a re-analysis of the deposited data

How the results depend on the processing

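The counts of 28 higher and 9 lower genes became 52 and 15 with a limit of 3-fold, and 13 and 2 with a limit of 8-fold. With a CPM of at least 1 in place of 5, the higher count was 48. Leaving out each library in turn gave 27 to 51 higher and 9 to 27 lower genes. The largest counts were those without goat replicate A (51 and 27) and without goat replicate C (47 and 17), where fewer goats had to pass the limit, and 26 of the 28 and 9 of the 9 genes remained in both. Of the 28 higher genes, 22 remained with library totals as the scale, 17 per kb of exon, 20 without any exon overlap, and 23 with at least 4 exons matched. Of the 9 lower genes, 8, 6, 6, and 8 remained.

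Of the 37 genes, 12 were called between cattle and sheep with at least 10 counts in every library, because only 24 of the 37 were then tested. Of the 20 called genes, the 12 still tested were all called again. With cattle and sheep libraries alone, 15 of 29 were called. Leaving out each library gave 16 to 21 calls. UBE2H lost its call with the length offset (log2 fold change -0.02, adjusted p = 0.96, edgeR), and 26 further tests of single genes lost their call with the same sign. PTK6 lost it without cattle A or B or any sheep library, PPEF2 without cattle A or C or sheep A or C, RUNDC3A without cattle B or C or sheep A or B, and NT5DC1 without cattle A or B, any sheep library, or goat B (adjusted p = 0.052 to 0.21). It was also lost by RASEF without cattle replicate B (0.061), and PCSK1 without sheep replicate B (0.059). Leaving out each library gave 2975 to 4170 calls over all genes for cattle against sheep, 3221 to 4273 for goat against cattle, and 1324 to 2318 for goat against sheep, the lowest of these without goat replicate B (1986 with all libraries). With the length offset, the share of calls higher in the first-named species was 27.0% in place of 47.5% for cattle against sheep, 63.5% in place of 53.7% for goat against cattle, and 34.8% in place of 55.3% for goat against sheep. Between libraries of equal letter, the deviations from species means correlated by -0.201 to 0.287. Libraries of unequal letter were not compared, so these values cannot show whether the letters pair the libraries. A replicate block gave 3762, 3984, and 1892 calls and 19 of the 37 genes. Depth limits the low side of each comparison: apart from ACCS, the goat counts of goat-lower genes did not exceed 81 in a library, and cattle held 0, 3, 5, and 21 summed counts for MME, MAB21L4, PTK6, and PCSK1.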

Other observations

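A further 7 shared genes met the 4-fold limit and the CPM minimum but were left out, all of them lower in goats. In 6 of them, PIP4P1, SMPD2, TRMT2A, ENSBTAG00000002881, ENSBTAG00000021275, and ENSBTAG00000030974, between 90.2% and 100% of the goat exon length lay under another gene, against at most 28.2% in cattle and 0% in sheep. The seventh, ENSBTAG00000005588, lies in the left-out interval of cattle chromosome 23 and has 100% of its goat exon length under another gene. PIP4P1, a phosphatase of phosphatidylinositol 4,5-bisphosphate in lysosomes, had a CPM of 22.9, 21.0, and 24.3 in cattle, 34.1, 36.2, and 39.7 in sheep, and 0 counts in all goats. SMPD2, a neutral sphingomyelinase, had 10.6, 7.99, and 11.3 in cattle, 10.2, 16.5, and 12.3 in sheep, and 0 counts in all goats. TRMT2A, a tRNA methyltransferase, had 58 counts over the 3 goats.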
